A study of Mus musculus with 6 samples.

Results

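The let-7 family of the mouse was followed here in lung, apart from its best known member, let-7a-5p. The members are the 10 array probes mmu-let-7b-5p, mmu-let-7c-5p, mmu-let-7d-5p, mmu-let-7e-5p, mmu-let-7f-5p, mmu-let-7g-5p, mmu-let-7i-5p, mmu-let-7j, mmu-let-7k and mmu-miR-98-5p, written below without the species prefix and, for the 5p arms, often without the arm. They are picked out by probe name, from 1963 probes for mature mouse miRNAs. The 3 untreated WT mice were given saline and the 3 WT-BLM mice bleomycin (BLM), 1.5 U/kg into the trachea, and lungs were taken at day 21. All 6 were C57Bl6 mice without a transgene, aged 8 to 10 weeks, and each was measured on 1 array with 1 dye. BLM injures the lung and is used as a model of fibrosis. IKBM mice, a transgenic line of the same study, were not analysed here. RNA was taken from whole lung, so fewer cells that carry a miRNA and less of it per cell cannot be told apart.

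A mature let-7 miRNA guides the Argonaute protein to messenger RNAs that pair with its seed, bases 2 to 8 from the 5′ end, and represses them. Known targets include Hmga2, Ras and Myc genes. The RNA-binding protein Lin28 blocks maturation of let-7 precursors in early embryos and stem cells, and let-7 is abundant in differentiated tissue such as adult lung.

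The sequences show how little separates the probes from one another. They are printed 5′ to 3′ as RefSeq gives them for the mouse assembly GRCm38.p6, with the seed in capitals, and each is identical to the target listed for its array probe.
let-7a-5p: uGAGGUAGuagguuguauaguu
let-7b-5p: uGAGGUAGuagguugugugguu
let-7c-5p: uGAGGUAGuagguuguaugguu
let-7d-5p: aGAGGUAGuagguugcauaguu
let-7e-5p: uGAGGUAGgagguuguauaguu
let-7f-5p: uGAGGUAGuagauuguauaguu
let-7g-5p: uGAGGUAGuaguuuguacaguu
let-7i-5p: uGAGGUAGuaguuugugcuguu
let-7j: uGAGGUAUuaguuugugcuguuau
let-7k: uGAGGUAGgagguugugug
miR-98-5p: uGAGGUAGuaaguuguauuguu
Of the 10 members, 9 carry the let-7a seed, and let-7j does not, because it differs from let-7a by G8U (let-7a base, position from the 5′ end, member base). Let-7c, let-7e and let-7f each differ from let-7a at 1 position, by A19G, U9G and G12A. Let-7b adds A17G to the A19G of let-7c, so let-7b and let-7c differ at position 17 alone. Let-7d is the member that starts with another base, by U1A, and it also has U16C. Let-7i has 4 differences from let-7a. Over the 22 bases of let-7i, let-7j differs from it by G8U alone, and 2 bases follow at its 3′ end. Let-7k is the shortest at 19 bases and differs from let-7b over those bases by U9G alone. On the array, 11 of 1963 miRNA probes (0.56%) have the let-7a seed, and outside the family that is miR-1961, which was detected on none of the 6 arrays.

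Several of these miRNAs are encoded together. On chromosome 13 of GRCm38.p6, mature let-7d lies on the minus strand at chr13:48536078-48536099 and let-7f of the Mirlet7f-1 gene at chr13:48537889-48537910, beside Mirlet7a-1. The other copy of let-7f lies on the plus strand at chrX:151912353-151912374, next to miR-98 at chrX:151913229-151913250. Let-7b at chr15:85707325-85707346 and a copy of let-7c at chr15:85706616-85706637 are neighbours on the plus strand, and the other copy of let-7c is at chr16:77599672-77599693, on the plus strand, beside Mir99a. Let-7e is on the plus strand at chr17:17830366-17830387 with Mir99b and Mir125a within 10 kb. Let-7g (chr9:106178846-106178867, plus), let-7i (chr10:122985698-122985719, minus), let-7j (chr3:140028281-140028304, plus) and let-7k (chr5:147283257-147283275, minus) had no other miRNA gene listed within 10 kb. An array probe for a mature miRNA cannot tell the copies of let-7c or let-7f apart.

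Each probe was spotted at 2 places on each array. Levels are log2 intensities after background correction and quantile normalization, averaged over both spots. A probe counted as detected on an array where it exceeded the median of the empty control spots by 3 times their SD, and testing covered the 275 probes detected on 3 or more arrays. All 10 members were detected on all 6 arrays, as were 116 of the 1963 probes. Empty spots scattered most in WT mouse 3 (SD 59.3) and WT-BLM mouse 1 (SD 45.2), compared with SDs of 8.01 to 18.1 elsewhere. The epithelial miRNAs miR-200a, miR-200b, miR-200c, miR-141 and miR-429 and the endothelial miR-126a-3p were detected on all 6 arrays, so markers of lung epithelium and endothelium were present. The skeletal muscle miRNA miR-206-3p was detected in WT mouse 2 alone, at 1599 intensity units above the empty spots, and miR-1a-3p of muscle reached 10416 there, against 491 to 2329 in the other mice. With 3 mice per group the number of arrays limits precision, and the smallest p that exact permutation allows, two-sided, is 0.10.

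None of the 10 members changed between untreated and BLM-treated lung by the test. All 10 had a higher mean level in WT-BLM than in WT mice, by 0.08 to 1.10 on the log2 scale, but the 95% interval of every one of them included 0. The percentage of all tested probes with an adjusted p under 0.05 (limma, Benjamini-Hochberg) was 0, and the adjusted p of every member was 1. The unadjusted p of the members lay between 0.103 and 0.755, so that 0 of 10 were under 0.05, against 5 of 275 tested probes (1.82%). No member had groups that did not overlap, where 13 of the 275 tested probes (4.73%) did. A positive difference was also found for 155 of the 275 tested probes (56.4%) and for 62 of the 116 detected on all arrays (53.4%). The median difference was 0.42 over the 10 members and 0.04 over all tested probes. The members share arrays, and several share most of their sequence, so they are not independent measurements of a direction.

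**Figure D1:**
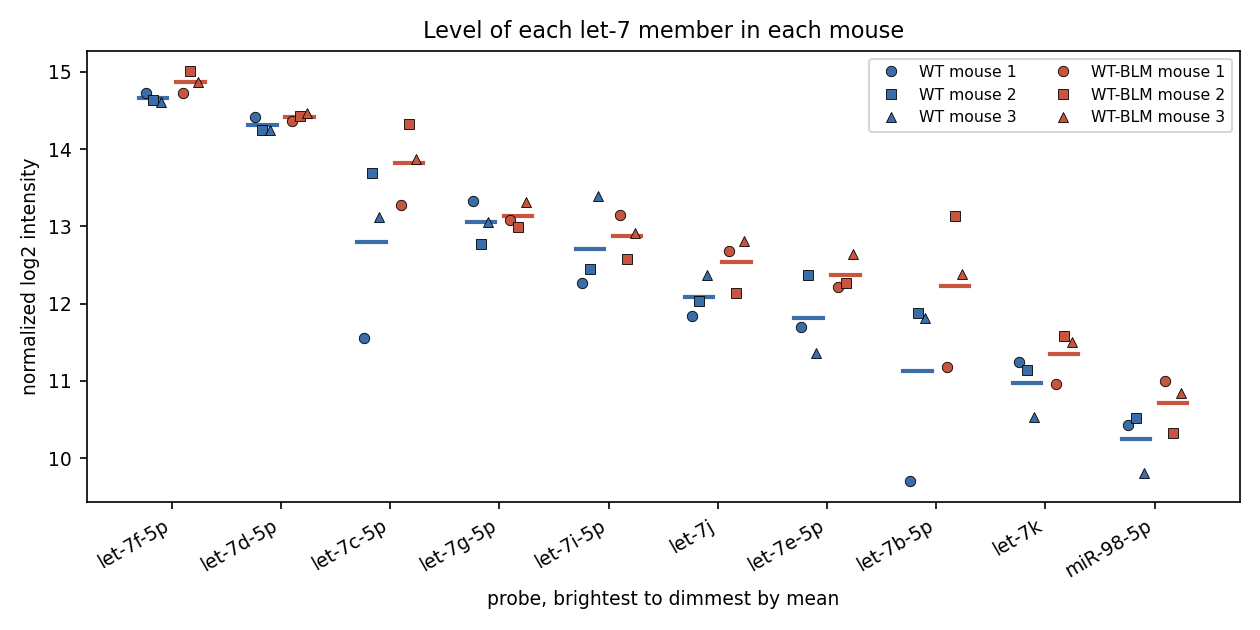
Normalized log2 intensity (vertical axis) of the 10 let-7 members, ordered from the brightest to the dimmest probe, with 1 point per mouse (blue for WT, red for WT-BLM, one symbol per mouse number) and a bar at the mean of each group of 3 mice. The groups overlap for every member, and WT mouse 1 lies far below the other mice for let-7b and let-7c.

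Let-7f and let-7d were the brightest members. Let-7f had levels of 14.73, 14.64 and 14.61 in WT mice 1, 2 and 3 and of 14.73, 15.01 and 14.86 in WT-BLM mice. The lowest WT-BLM mouse was level with the highest WT mouse, and the difference was 0.21 (SE 0.20, 95% interval -0.27 to 0.68, exact permutation p = 0.2). Quantile normalization gives spots of the same rank the same level, so such ties are not measured agreement. Let-7f had rank 3 of all probes in WT mouse 1 and WT-BLM mouse 1, at 29175 and 27972 above the empty spots. Let-7d had 14.41, 14.25 and 14.25 in WT and 14.36, 14.43 and 14.46 in WT-BLM mice. The equal levels of WT mice 2 and 3 came from 22475 and 12101 above the empty spots. WT mouse 1 lay within the range of the WT-BLM mice, and the difference was 0.11 (SE 0.20, 95% interval -0.35 to 0.57, exact permutation p = 0.2). The SEs of let-7d and let-7f were the smallest of the 10 members here and with cyclic loess, at 0.17 and 0.19 in the latter. Without normalization they were 0.32 and 0.35, and those of let-7j, let-7i and let-7g were smaller, at 0.28, 0.29 and 0.31. The difference itself also depended on the scaling. For let-7f it was 0.34 with 75th percentile scaling, 0.32 with cyclic loess and 0.51 without normalization, and 0.14 without WT-BLM mouse 2. For let-7d it was 0.29 with 75th percentile scaling, 0.29 with cyclic loess, 0.46 without normalization, 0.24 on the authors' values and 0.18 without WT mouse 1.

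Let-7b and let-7c had the largest mean differences and also the largest spread. Let-7b had levels of 9.70, 11.88 and 11.82 in WT mice and of 11.18, 13.13 and 12.39 in WT-BLM mice. WT-BLM mouse 1 lay below 2 of the 3 WT mice, and WT mouse 1 was the lowest of all, by more than 1 log2 unit. The difference was 1.10 (SE 0.70, 95% interval -0.54 to 2.74, exact permutation p = 0.4), a fold change of 2.14 with an interval from 0.69 to 6.68. Let-7c had 11.56, 13.69 and 13.12 in WT and 13.27, 14.33 and 13.87 in WT-BLM mice. WT mouse 2 exceeded WT-BLM mouse 1, and WT mouse 1 was again far below the rest. The difference was 1.03 (SE 0.56, 95% interval -0.27 to 2.33, exact permutation p = 0.2). Both values rest largely on 1 mouse, since without WT mouse 1 the difference was 0.35 for let-7b and 0.40 for let-7c. Without WT-BLM mouse 2, the brightest for both, it was 0.65 for let-7b.

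The differences of let-7b and let-7c also depended on single spots, on different arrays. For let-7c, the spots on the array of WT mouse 1 read 6655 and 1190 above the empty spots, whereas both spots of each other mouse were within 1 log2 unit. When the brighter spot was taken wherever spots differed by more than 1 log2 unit, the difference of let-7c was 0.60, and with such pairs of spots left out it was 0.42. For let-7b, both spots of WT mouse 1 were dim, at 951 and 588, and the discordant spots were those of WT-BLM mouse 1, at 3930 and 941, and of WT-BLM mouse 3, at 3811 and 7472. The same choice raised the difference of let-7b to 1.67, with an unadjusted p of 0.025 and an adjusted p of 1 (limma), and leaving out discordant spots gave 2.00 (SE 0.93, unadjusted p 0.081, adjusted p 1). In the authors' normalized intensities, a linear scale with 1 value per probe, let-7b was 759, 3866 and 3362 in WT and 1004, 8346 and 5186 in WT-BLM mice. There WT mouse 1 and WT-BLM mouse 1 were both low, and the groups overlapped (exact permutation p = 0.4). On that scale let-7c was 6324, 12435 and 8995 in WT and 9006, 20031 and 14853 in WT-BLM mice, with overlap of the groups as well (exact permutation p = 0.2).

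**Figure D2:**
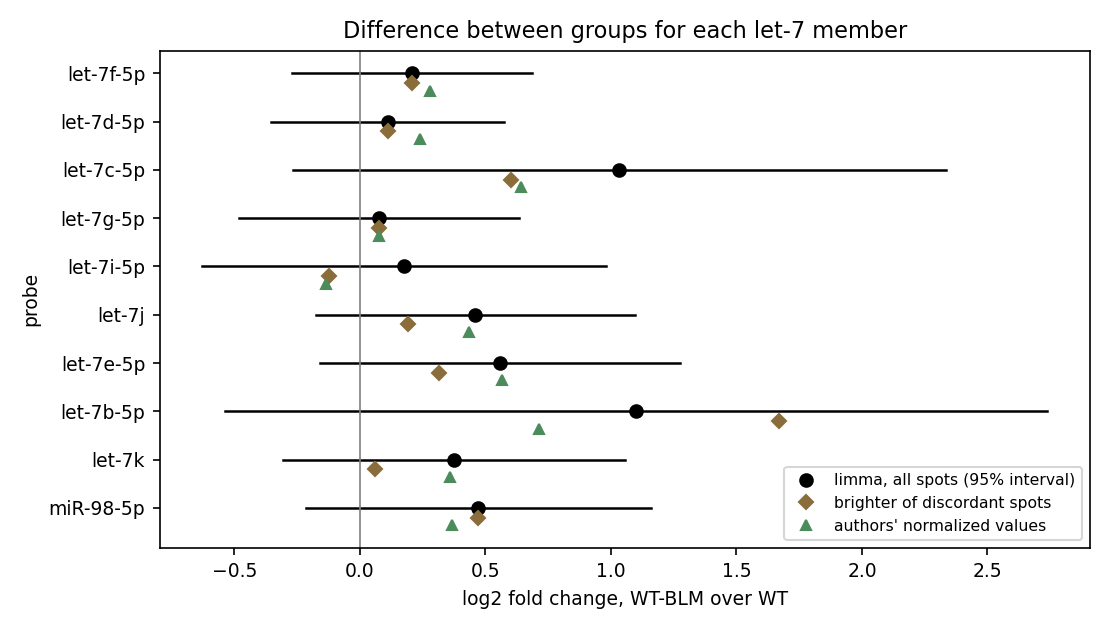
Log2 fold change of WT-BLM over WT (horizontal axis) for each let-7 member, from limma with its 95% interval (black, 3 mice per group), with the brighter spot taken where spots differed by more than 1 log2 unit (brown) and from the authors' normalized values with 1 added (green). Every interval crosses 0, and the estimates move most for let-7b and let-7c, while that of let-7i changes sign.

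Let-7e, let-7j and miR-98 had differences near 0.5 with all spots and mice, and those of let-7e and let-7j were smaller with other spots. Let-7e, which is encoded beside miR-99b and miR-125a, had 11.70, 12.37 and 11.37 in WT and 12.21, 12.26 and 12.64 in WT-BLM mice. WT mouse 2 lay among the WT-BLM mice, and the difference was 0.56 (SE 0.31, exact permutation p = 0.3). On the array of WT mouse 3, its lowest, the spots of let-7e read 973 and 3027. The difference of let-7e was 0.31 with the brighter spot and 0.34 with discordant spots left out, and it was 0.35 without WT mouse 3 and 0.84 without WT mouse 2. Let-7j had 11.84, 12.03 and 12.37 in WT and 12.69, 12.13 and 12.81 in WT-BLM mice, and WT-BLM mouse 2 fell below WT mouse 3. The difference was 0.46 (SE 0.27, exact permutation p = 0.2), which became 0.19 with the brighter spot and 0.34 with discordant spots left out. MiR-98 had 10.42, 10.51 and 9.81 in WT and 10.99, 10.32 and 10.85 in WT-BLM mice. WT-BLM mouse 2 lay below WT mice 1 and 2, and the difference was 0.47 (SE 0.29, exact permutation p = 0.3), or 0.25 without WT mouse 3 and 0.12 without both WT mouse 3 and WT-BLM mouse 1, whose empty spots scattered most.

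Let-7k, let-7i and let-7g showed smaller mean differences. Let-7k had 11.24, 11.14 and 10.53 in WT and 10.96, 11.58 and 11.50 in WT-BLM mice. WT-BLM mouse 1 lay below WT mice 1 and 2, with a difference of 0.37 (SE 0.29, exact permutation p = 0.3) that was 0.06 with the brighter spots, 0.51 with discordant spots left out and 0.13 without WT mouse 3. Let-7i had 12.27, 12.45 and 13.39 in WT and 13.15, 12.58 and 12.91 in WT-BLM mice. WT mouse 3 was the highest of all 6, and the difference was 0.18 (SE 0.34, exact permutation p = 0.7). Its sign turned to -0.12 with the brighter spots and to -0.040 with discordant spots left out, and its mean was lower in WT-BLM mice in the authors' normalized intensities, where the other 9 members had a higher mean. Let-7g had 13.33, 12.77 and 13.05 in WT and 13.08, 12.99 and 13.32 in WT-BLM mice, and had the smallest difference of the members, 0.08 (SE 0.24, exact permutation p = 0.8). Its sign turned to -0.07 without WT mouse 2.

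The spots of the family disagreed on 1 array in particular. Among 60 pairs of a member and an array, 7 had spots that differed by more than 1 log2 unit (11.7%), against 96 of 1650 pairs over all tested probes (5.82%). Of the 7, 4 were on the array of WT mouse 1. Beside let-7c, these were let-7i, at 8938 and 2459 above the empty spots, let-7j, at 5745 and 2136, and let-7k, at 3606 and 1195. In all 4 the dimmer spot was the one in column 22 of the chip, and the brighter one was in column 2. Let-7f, let-7d, let-7g, let-7e and let-7b sit in the same 2 columns, and both spots of miR-98 in column 20, and the spots of each of these on that array lay within 1 log2 unit of each other. No member was discordant in WT mouse 2 or WT-BLM mouse 2. Over all tested probes the arrays of WT mouse 1 and WT-BLM mouse 1 had the most discordant pairs, 29 each (10.5%). The group differences with the brighter spot and with discordant spots left out are given with each member that had such spots.

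**Figure D3:**
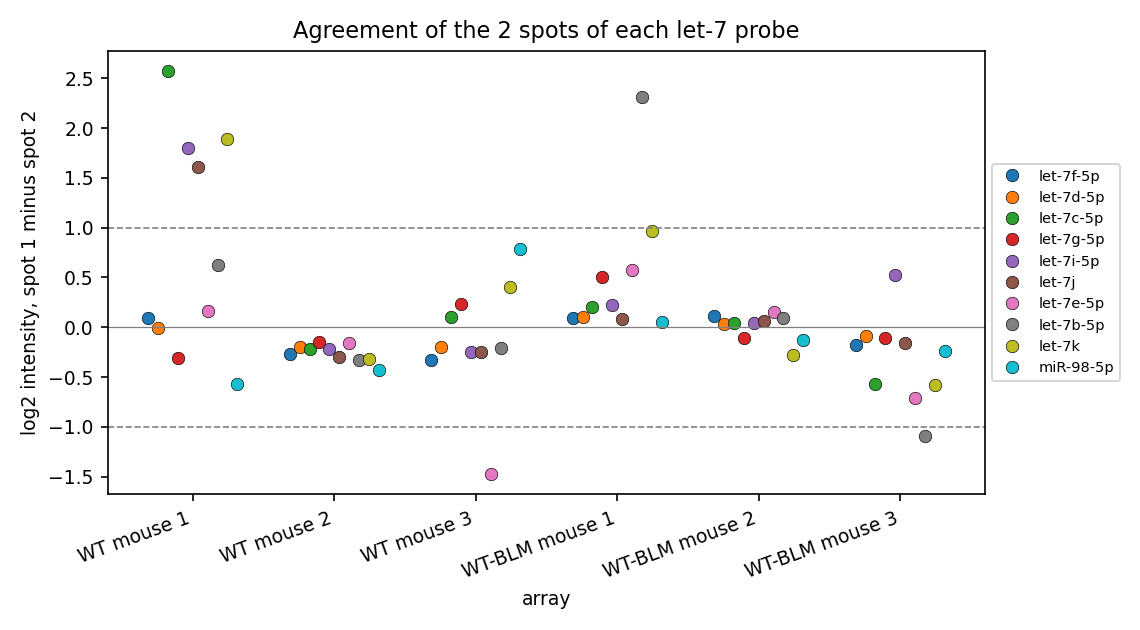
Difference between both spots of each let-7 member (log2 intensity of spot 1 minus spot 2, vertical axis) on each of the 6 arrays, with 1 coloured point per member and dashed lines at a difference of 1 either way. Of the 7 points outside the lines, 4 belong to WT mouse 1, where spot 1 is the brighter.

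Within the family, the order of probe brightness was stable at both ends. Brightness also depends on how well a probe binds, so this order is not an order of abundance. Let-7f was the brightest and let-7d the next on all 6 arrays, at ranks 2 to 3 and 4 to 7 of all 1963 probes. MiR-98 and let-7k took ranks 8 to 10 within the family on every array. In between, let-7c ranged from rank 3 to rank 7 and let-7b from rank 4 to rank 10. Let-7b was last in WT mouse 1 and rank 4 in WT-BLM mouse 2, which correspond to ranks 82 and 19 of all probes.

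By mean level in WT mice the order was let-7f, let-7d, let-7g, let-7c, let-7i, let-7j, let-7e, let-7b, let-7k and miR-98. Of the 9 neighbouring pairs in it, 3 had values that did not overlap between mice, namely let-7f over let-7d (difference 0.35 ± 0.04, SD, n = 3), let-7d over let-7g (1.25 ± 0.21) and let-7k over miR-98 (0.72 ± 0.09). The values of the other 6 neighbours overlapped, although let-7i was above let-7j in each of the 3 mice (0.62 ± 0.35). In WT-BLM mice let-7c was ahead of let-7g and the order was otherwise the same. Let-7g was above let-7c in only 1 of the 3 WT mice, WT mouse 1, where the spots of let-7c were discordant. With the brighter of discordant spots, the WT means against the family median were 0.44 for let-7c and 0.27 for let-7g, so let-7c was ahead in both groups. In WT-BLM mice 2 of 9 pairs did not overlap, let-7f over let-7d (0.45 ± 0.12) and let-7d over let-7c (0.59 ± 0.50). Against the median of the family on the same array, no member had groups that did not overlap, and the lowest exact permutation p over the 10 members and let-7a was 0.3.

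Together, the 10 members held a larger share of the array signal in each WT-BLM mouse than in any WT mouse. This share was computed per array from intensities above the empty spots, as a percentage of the sum over the miRNA probes, so it does not depend on normalization between arrays. The measure was added after the levels had been seen. The members held 14.8%, 15.8% and 15.9% in WT mice against 17.3%, 20.2% and 20.7% in WT-BLM mice. All 3 WT-BLM mice lay above all 3 WT mice, with means of 15.5% ± 0.60 and 19.4% ± 1.80 (SD, n = 3 each). With let-7a included, the shares were 18.8%, 19.7% and 19.93% in WT and 19.97%, 25.3% and 26.0% in WT-BLM mice. There WT-BLM mouse 1 was almost level with WT mouse 3, and its let-7a spots read 3542 and 23218 above the empty spots. A share also rises where the signal of other probes falls, which was not tested. With the brighter of discordant spots the WT mice held 15.4%, 15.8% and 15.4% and the WT-BLM mice 16.3%, 20.1% and 20.3%. In the authors' normalized intensities the shares were 15.6%, 15.8% and 16.4% against 17.1%, 20.5% and 20.01%. The groups did not overlap in either, although WT-BLM mouse 1 came within 1 percentage point of the highest WT mouse. Without WT mouse 2, the mouse with muscle miRNAs, the means differed by 4.04 percentage points, against 3.89 with all mice. The sum weights bright probes most and has no test of its own, since its members were chosen with earlier results known.

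By single member, the share was separated for let-7d alone. Let-7d held 3.86%, 3.28% and 3.47% in WT and 4.12%, 3.96% and 4.33% in WT-BLM mice (exact permutation p = 0.1, the smallest possible). Groups did not overlap for 15 of the 275 tested probes (5.45%) on this measure, so 1 member of 10 is near what all probes show. Let-7f held 5.36%, 4.24% and 4.15% in WT and 5.504%, 5.36% and 5.66% in WT-BLM mice, and WT mouse 1 reached the range of the WT-BLM mice by a narrow margin. Let-7c held 0.72%, 2.45% and 1.82% in WT and 1.64%, 3.87% and 3.03% in WT-BLM mice, which overlapped. The share of let-7i was about equal, with means of 1.42% ± 0.58 in WT and 1.39% ± 0.17 in WT-BLM mice (SD, n = 3 each).

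**Figure D4:**
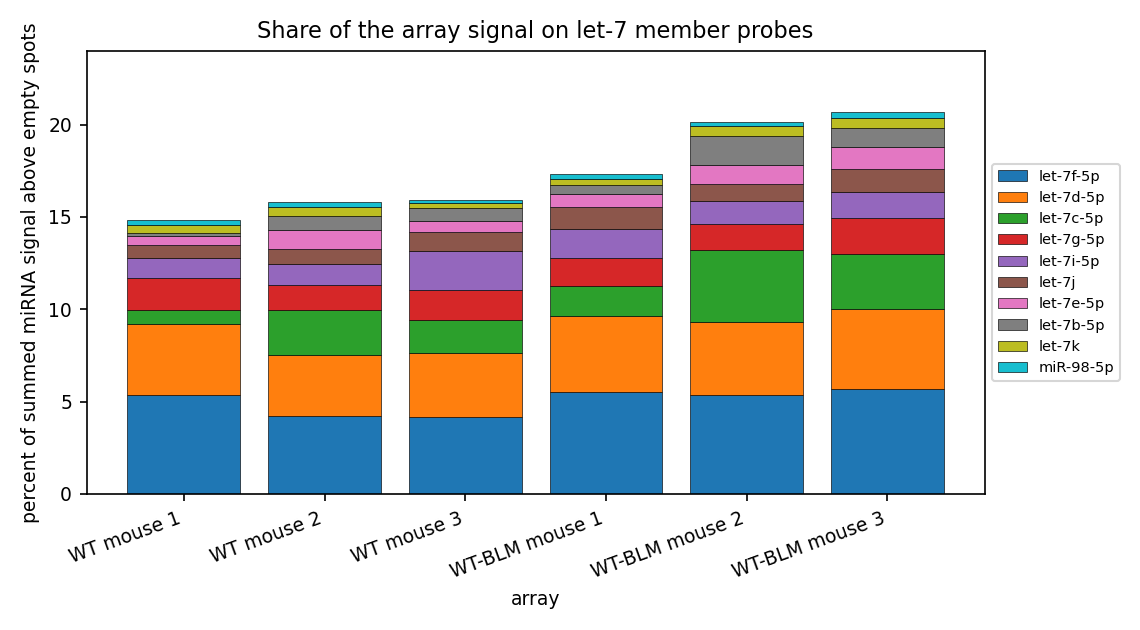
Percentage of the summed miRNA signal above the empty spots (vertical axis) held by the 10 let-7 members on each of the 6 arrays, stacked by member. The stacks of the 3 WT mice end between 14.8% and 15.9% and those of the 3 WT-BLM mice between 17.3% and 20.7%, with let-7f and let-7d as the largest parts in every mouse.

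None of the tested miRNAs that mark cell types passed an adjusted p of 0.05 between the same mice, and their part in the let-7 values was not tested. Endothelial miR-126a-3p had levels of 13.30, 14.01 and 12.78 in WT and of 14.40, 13.97 and 14.01 in WT-BLM mice, a difference of 0.76 (SE 0.34, adjusted p = 1 by limma). Smooth muscle miR-143-3p was lower by 0.88 in the mean of WT-BLM mice (SE 0.52, adjusted p = 1), while miR-145a-5p of the same cells differed by -0.05. The lowest level of miR-143-3p, 11.64, was that of WT-BLM mouse 1, against 13.55 and 13.59 in WT-BLM mice 2 and 3. On that array the mean of its spots was 5842 above the empty spots, where let-7j with a mean of 5985 had a level of 12.69. The single spots of miR-143-3p were not compared. The 5 epithelial miRNAs had differences from -0.19 to 0.63, and the myeloid miR-223-3p and miR-142a-3p of 0.00 and 0.21. The red cell miRNAs miR-451a, miR-144-3p and miR-486a-5p had differences of 0.05, 0.03 and -0.14, and miR-122-5p of liver and miR-124-3p of neurons were each detected on 1 array. The muscle miRNAs miR-1a-3p and miR-133a-3p, which were brightest in WT mouse 2, had differences of -1.26 (SE 0.75) and -0.63 (SE 0.73), both with an adjusted p of 1 by limma.

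The profiles of the members over the 6 mice were compared by a root mean square distance on the log2 scale, after each was centred on its own mean. Let-7b and let-7c, which differ by A17G and whose genes are neighbours on chromosome 15, had a distance of 0.32. Let-7i and let-7j, which differ by G8U over the shared bases, had one of 0.27. Both distances include discordant spots of WT mouse 1, those of let-7c, let-7i and let-7j, while both spots of let-7b were dim there. With the brighter of discordant spots, let-7c lay at 0 and let-7b at -3.15 from the family median in that mouse. With all spots they lay at -0.29 and -2.15. The distance is not scaled for spread, so any 2 probes that vary little lie close together by it, and it was not used to relate sequence to profile. Probes that differ by 1 base may bind each other's target, and this was not measured on these arrays. The tested probes outside the family whose profile lay nearest to the median profile of the family were miR-22-5p, miR-338-3p, miR-194-5p, miR-18a-5p and miR-466f-5p, at distances of 0.11 to 0.14 over the 6 arrays, and these too vary little.

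**Figure D5:**
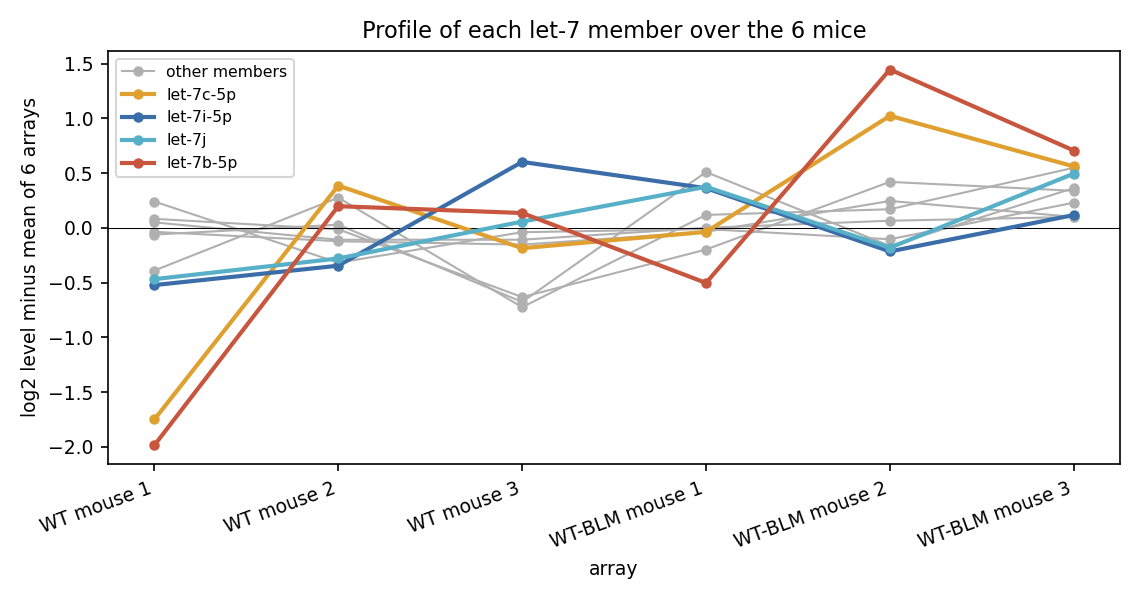
Level of each let-7 member on each of the 6 arrays as log2 difference from its own mean (vertical axis), with let-7b and let-7c, and let-7i and let-7j, in colour and the other 6 members in grey. Let-7b and let-7c run together, lowest in WT mouse 1 and highest in WT-BLM mouse 2, whereas the grey lines stay within a narrower range. In WT mouse 1 the spots of let-7c, let-7i and let-7j were discordant.

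The other products of the same genes gave little signal. Of 11 probes for the opposite (3p) arms on the array, none was detected on all 6 arrays and 2 were tested. Let-7d-3p differed by 0.05 (SE 0.30) and let-7a-1-3p by -0.12 (SE 0.43), both with an adjusted p of 1 by limma. Let-7b-3p reached 454 above the empty spots in WT mouse 3, against 16.1 to 105 in the other mice. The list of miRNAs from the same gene clusters held miR-99a, miR-99b and miR-125a, whose genes lie within 10 kb of a member's gene, miR-100, whose gene lies that close to Mirlet7a-2 only, and miR-125b, whose genes lie farther from any let-7 gene. All 5 were detected on all arrays. Their differences ran from -0.22 to 0.59, with 2 higher and 3 lower in WT-BLM mice and none past an adjusted p of 0.05. MiR-99a-5p, the neighbour of a let-7c gene on chromosome 16, had levels of 10.09, 11.76 and 12.22 in WT and of 12.14, 11.68 and 12.02 in WT-BLM mice. As for let-7c, WT mouse 1 was the lowest by more than 1 log2 unit.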

How the data were processed

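Samples were grouped by their GEO labels. For each array the authors deposited raw median intensity values of 5022 spots, and for the series a table of their own normalized intensity values on a linear scale, whose normalization method is not given in the sources used here. The probe names, and the arms and neighbours listed beside them, were chosen with earlier results of these data known. Using limma 3.58.1 (R 4.3.3), all spots were background-corrected by normexp with an offset of 50. Control spots were then dropped, quantile normalization was applied to log2 values of the miRNA spots, and spots were averaged by probe. Probes detected on 3 or more of 6 arrays were tested with lmFit and eBayes over both groups, with Benjamini-Hochberg adjustment over 275 probes. The p-values measure the spread between single mice. Probes are named as in the files, and the report describes all 10 members and, outside them, the listed arms, neighbours and markers and the 5 nearest profiles. Mature sequences and loci came from RefSeq (GRCm38.p6). The steps were tested on simulated data. Normalization, background, filter, spots, test, the authors' values and the mice used were varied.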

Additional observations from a re-analysis of the deposited data

How the results depend on the processing

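Over 22 alternatives to the fits of single probes, of which 1 was chosen after seeing the data, no member and no probe reached an adjusted p of 0.05, and the lowest adjusted p of a member was 0.62. The number of probes with an unadjusted p under 0.05 was 5 and ranged from 0 to 46, the latter without the detection filter. The median difference of the members was 0.42 and ranged from 0.20, with the brighter of discordant spots, to 0.51, and from 0.30 to 0.48 with a mouse left out. Of 220 values of single members, 7 changed sign, all for let-7i or let-7g. Let-7i was -0.12 with the brighter spot, -0.040 with discordant spots left out and -0.13 on the authors' values with either 1 or 50 added. It ranged from -0.055, without WT mouse 1, to 0.53 with a mouse left out, and let-7g from -0.066, without WT mouse 2, to 0.21, at -0.01 without WT-BLM mouse 3. Let-7b ranged from 0.35 to 1.61 and let-7c from 0.40 to 1.50, let-7k from 0.13 to 0.59 and miR-98 from 0.25 to 0.68 with a mouse left out. Let-7a, the reference, was -0.21 but 0.12 without normalization, 0.18 with the brighter spot, 0.28 with discordant spots left out, 0.33 on the authors' values with 50 added and 0.33 with 1 added, 0.31 without both arrays of wide empty spots, and -0.50 to 0.27 with a mouse left out. The 0.27 was found without WT-BLM mouse 1, where the spots of let-7a read 3542 and 23218 above the empty spots. With 75th percentile scaling, the median of all tested probes was -0.11 and the percentage with a positive difference 34.5 in place of 56.4, while the member median was 0.34 and all 10 members remained positive. An unadjusted p under 0.05 was found for let-7b and let-7c under that scaling (0.024 and 0.019), for let-7j without normalization (0.047), for let-7b with the brighter spot (0.025) and without both arrays of wide empty spots (0.049), and for let-7c and let-7e without WT mouse 2 (0.028 and 0.022). With 75th percentile scaling every member had the same SE, 0.45, against 0.70 for let-7b and 0.56 for let-7c in the main fit. Those p-values of let-7b and let-7c thus do not measure the spread of either probe. The cause of these shifts was not tested.

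The labels do not say whether same-numbered mice were pairs, so the main fit is unpaired. Deviations of same-numbered mice correlated by 0.16, 0.03 and 0.07 across probes, and those of differently numbered mice by -0.16 to 0.09. With 3 mice per group these values cannot decide whether the mice were paired. With the replicate block, the adjusted p of let-7b and let-7c was 1 and the unadjusted p 0.0098 and 0.018, the member median stayed at 0.42, and 8 probes, against 5, had an unadjusted p under 0.05. The methods' t-test, paired, called 9 probes and 0 members at their threshold and 0 after Benjamini-Hochberg adjustment. The share of signal, a measure added with its alternatives after the levels had been seen, differed by 3.89 percentage points, 3.39 with the brighter spot, 3.25 on the authors' values and 3.24 to 4.92 with a mouse left out. No slide or scan is recorded in the files, so no block for these could be fitted.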
